A study of Mus musculus with 18 samples.

Results

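The data described here are the transcriptomes of extraorbital lacrimal glands (LGs) of male BALB/c mice at 2 months (2M) and at 4 months (4M), with 3 mice at each age, out of 18 mice in the series. These 6 mice were taken by strain and age alone, and all genes with enough counts were compared, which left 16639 of 54232 genes. BALB/c served in the study as the control strain for NOD.H-2b mice, which develop a Sjögren-like inflammation of the LG; neither strain received a treatment. The other groups used here are BALB/c at 6M and NOD.H-2b at 2M and 4M, also with 3 males each. Each library was made from 1 LG of 1 mouse, freed of its capsule and depleted of ribosomal RNA, so that all cells of the gland contributed to it.

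The LG makes the watery and protein-rich part of tears. Its acinar cells secrete proteins such as secretoglobins and lactoperoxidase, its ducts modify the fluid, and its contractile myoepithelial cells wrap the acini. The gland is also a mucosal immune organ: plasma cells lodged between the acini release dimeric IgA joined by the J chain, the polymeric immunoglobulin receptor (pIgR) of the epithelium carries it across the cell, and it reaches the tear film as secretory IgA. The comparison of 2M with 4M asks what changed in the control gland over this period.

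The 6 libraries held between 54255982 and 67138830 counts. The defining markers of the gland were present. The 45 secretory genes on a list of acinar products summed to between 456000 and 532000 counts per 1000000 (CPM, scaled by TMM over the 18 mice) at 4M and to between 511000 and 524000 CPM at 2M. Counts on mitochondrial genes were between 1.55% and 1.63% of the library at 2M and between 2.16% and 2.24% at 4M, and those on the 10 highest genes were between 39.8% and 41.2% at 2M and between 36.7% and 38.7% at 4M; the part of these shifts in the results was not tested. Of lists that mark neighbouring tissues, 12 skeletal muscle genes summed to at most 1.07 CPM. The 9 lymph node and spleen genes summed to between 0.494 and 1.17 CPM at 2M and to between 1.6 and 3.18 CPM at 4M. The chemokine Ccl21a had no count in any of the 18 mice, NOD.H-2b included, so its lack of counts is no check for such tissue. The homing receptor Ccr7 was called higher (log2 fold change 2.32 ± 0.56, edgeR FDR = 0.0192), with an FDR between 0.0778 and 0.0891 without replicate 2 or 3 of 2M or replicate 3 of 4M. The salivary list summed to between 156 and 178 CPM, most of it from Egf (144 to 148 CPM at 2M and 153 to 167 CPM at 4M), and the salivary gene Dcpp1 had no count. The erythroid list summed to between 26.3 and 35.3 CPM at 2M and to between 30.4 and 52.3 CPM at 4M, and all 5 tested members were highest in replicate 2 of 4M. In whole-gland RNA, more cells of a type and more RNA per cell cannot be told apart, which holds for every result below.

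From 2M to 4M, 345 genes were upregulated (2.07% of those tested) and 50 were downregulated (0.300%), at an FDR under 0.05 and a change of at least 2-fold in edgeR's quasi-likelihood test. Among the upregulated genes, 94 were functional immunoglobulin genes and 206 were other protein-coding genes, against 33 protein-coding genes among those downregulated. At an FDR under 0.05 with no limit on the fold, 1015 genes were higher (6.10%) and 834 were lower (5.01%) at 4M. The median log2 fold change over all genes was 0.005. The count of upregulated genes fell to 214 without replicate 3 of 2M, and that of downregulated genes fell to 27 without replicate 2 of 2M.

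**Figure D1:**
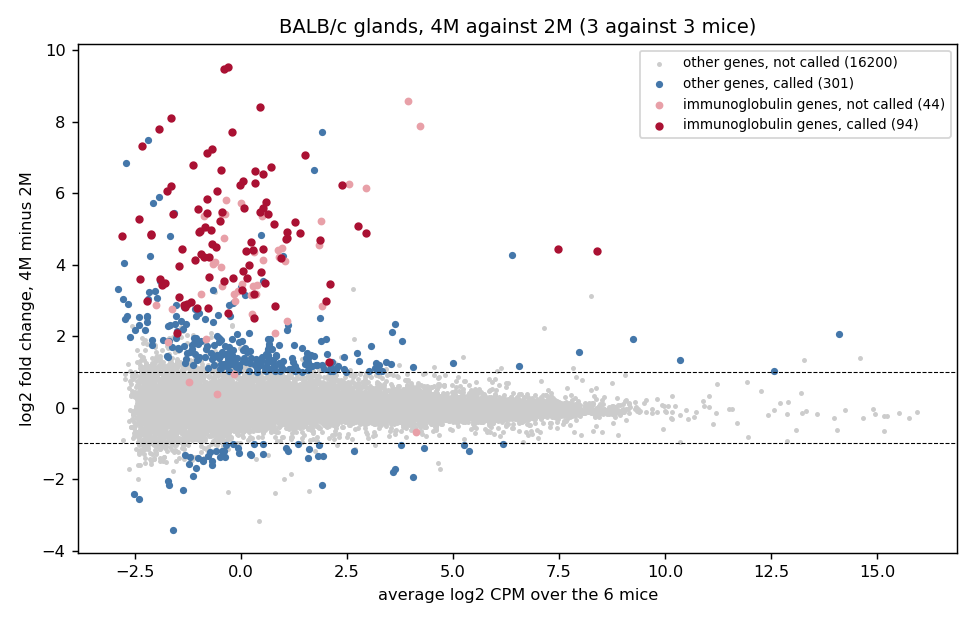
Each point is 1 of the 16639 genes tested in BALB/c LGs, by its average log2 CPM over the 6 mice (x axis) and its log2 fold change from 2M to 4M (y axis); dashed lines mark a 2-fold change and colours mark immunoglobulin genes and called genes. The 94 called immunoglobulin genes lie on the upper side, while most other genes lie near 0.

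Antibody genes made up 94 of the 345 upregulated genes. Counts on functional immunoglobulin genes took 0.00607%, 0.00865% and 0.0113% of each library at 2M and 0.127%, 0.0922% and 0.21% at 4M. Every 4M mouse was above every 2M mouse, and the ratio of the geometric means was 16.1. In the two-sided exact permutation test this difference had p = 0.1, the smallest value that 3 mice against 3 can give. The shares include Igkv14-111, a V gene that did not rise, with a mean of 23.0 CPM at 2M and 14.4 CPM at 4M. All functional immunoglobulin genes together summed to between 66.2 and 127 CPM at 2M and between 1020 and 2100 CPM at 4M. With constant region genes alone the log2 difference was 4.39, against 4.00 for all. At 6M the shares were 0.1%, 0.176% and 0.112%, within the range of the 4M mice. Of 264 functional immunoglobulin genes, 138 passed the filter on low counts, 94 were upregulated and none was called downregulated. Of the 138, 21 had 3 counts or fewer over the 2M mice and passed through their 4M counts. Other genes that were low at 2M also passed only through their 4M counts. The filter fixed in part the direction of all such genes. With at least 10 counts required in every mouse, 9 immunoglobulin genes were called higher.

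Igha, the constant region of the IgA heavy chain (chr12:113254830-113260236, minus strand, GRCm38), had 20.1, 31.6 and 47.8 CPM at 2M and 642, 480 and 964 CPM at 4M. The lowest 4M mouse was above the highest 2M mouse. The log2 fold change was 4.39 ± 0.51 (SE, n = 3 per age, edgeR FDR = 0.0156). Igkc, the constant region of the kappa light chain (chr6:70726435-70726966), rose by nearly the same factor, from 9.78, 17.4 and 23.2 CPM to 343, 238 and 517 CPM, with a log2 fold change of 4.45 ± 0.52 and an FDR of 0.0161 in edgeR. Jchain, which links IgA and IgM into polymers, rose from 4.53, 9.91 and 12.3 CPM to 165, 125 and 231 CPM, with a log2 fold change of 4.28 ± 0.49 and an FDR of 0.0153 in edgeR. For these 3 genes the order of the mice was the same at each age: replicate 3 was highest at both ages, replicate 1 was lowest at 2M and replicate 2 was lowest at 4M. The FDR rose above 0.05 for all 3 without replicate 2 of 2M (0.0812 for Igha, 0.082 for Igkc and 0.0779 for Jchain), and for Igkc and Jchain also without replicate 3 of 2M (0.0579 and 0.0565), while the log2 fold changes stayed between 3.97 and 4.75 for each library left out.

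The lambda genes Iglc1 and Iglv1 had smaller standard errors. Iglc1, a lambda constant region, had 0.439, 0.485 and 0.705 CPM at 2M and 15.1, 15.8 and 17.5 CPM at 4M, and Iglv1, a lambda variable segment, had 0.363, 0.431 and 0.441 CPM at 2M and 12.6, 13.4 and 16.1 CPM at 4M. The 3 mice of each age lay close together, so that both genes had an FDR of 5.5e-10 in edgeR, at log2 fold changes of 4.89 ± 0.15 and 5.09 ± 0.15. At 6M both were lower than at 4M, between 4.03 and 5.4 CPM for Iglc1 and between 4.79 and 6.16 CPM for Iglv1; this later change was not tested. Iglc2 was also upregulated (log2 fold change 4.71 ± 0.80, edgeR FDR = 0.0247), and Iglc3 was not called at 3.94 ± 1.40 (edgeR FDR = 0.163). The FDR of Iglc2 was between 0.0564 and 0.0961 without replicate 1 or 3 of 2M or replicate 1 of 4M. Lambda constant regions took between 3.17% and 5.92% of light chain constant counts at 2M and between 4.96% and 7.25% at 4M, which overlap (exact permutation p = 0.4, two-sided). The lambda constant genes are near copies of each other, so the division of reads among them is uncertain.

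The classes of heavy chain did not rise alike. Ighm, the constant region of IgM, had 2.77, 3.16 and 1.99 CPM at 2M and 4.7, 6.66 and 7.68 CPM at 4M, a log2 fold change of 1.27 ± 0.21 (edgeR FDR = 0.00509). Igha therefore took a larger part of heavy chain constant counts at 4M, with 97.8%, 98.1% and 98.7% against 86.5%, 85.7% and 95.6% at 2M, while the part of Ighm was between 0.717% and 1.36% at 4M and between 3.98% and 11.9% at 2M. The ages did not overlap in either share, and each had an exact permutation p of 0.1 (two-sided), the smallest possible here. Of the IgG classes, Ighg2b had 1 count over the 3 mice of 2M and between 1.02 and 2.3 CPM at 4M, a ratio of 293 with an exact 95% counting interval from 52.1 to 11600. Ighg2c had between 0 and 0.0718 CPM at 2M and between 0.691 and 1.51 CPM at 4M (log2 fold change 4.91 ± 0.66, edgeR FDR = 0.000709). Ighg2c is a gene of the reference GRCm38, a C57BL/6J genome whose antibody loci differ from those of BALB/c. Its reads here may therefore stem from another IgG gene. In a fit of all 18 mice the FDR was 0.153 for Ighm and 0.222 for Ighg2c. Ighg1 was not called, since replicate 2 of 2M already had 1.9 CPM beside 0.0955 and 0.0882 CPM in the other mice, against 5.47, 0.833 and 2.55 CPM at 4M (log2 fold change 2.08 ± 1.39, edgeR FDR = 0.435). Ighg3 had between 0.0921 and 0.142 CPM at 4M; as it had no count at 2M, a floor of 3 counts over the group puts the rise at 6.12-fold or more. Ighd, the IgD constant region carried by mature B cells, had between 0.106 and 0.248 CPM at 2M and between 0.0553 and 0.209 CPM at 4M and was too low to be tested, as was Ighe.

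Pigr, the receptor that moves IgA into tears, was also upregulated. It had 139, 113 and 161 CPM at 2M and 371, 427 and 407 CPM at 4M, with no overlap and a log2 fold change of 1.55 ± 0.14 (edgeR FDR = 0.00322). Fcgbp, an IgG Fc binding protein of mucus, rose by less than 2-fold, from 159, 202 and 186 CPM to 306, 319 and 371 CPM (log2 fold change 0.87 ± 0.11, edgeR FDR = 0.00365). Ccl28, the epithelial chemokine that draws IgA plasma cells to mucosal glands, was at 279, 258 and 292 CPM at 2M and 269, 294 and 259 CPM at 4M (log2 fold change -0.01 ± 0.06). Of 12 tested genes for homing and survival of plasma cells none was called, and Cxcl12 alone passed the FDR, at 0.24 ± 0.07 (edgeR FDR = 0.0449). Of 14 genes on the antibody list, 11 were tested and 9 were upregulated, against 2.07% of all genes.

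**Figure D2:**
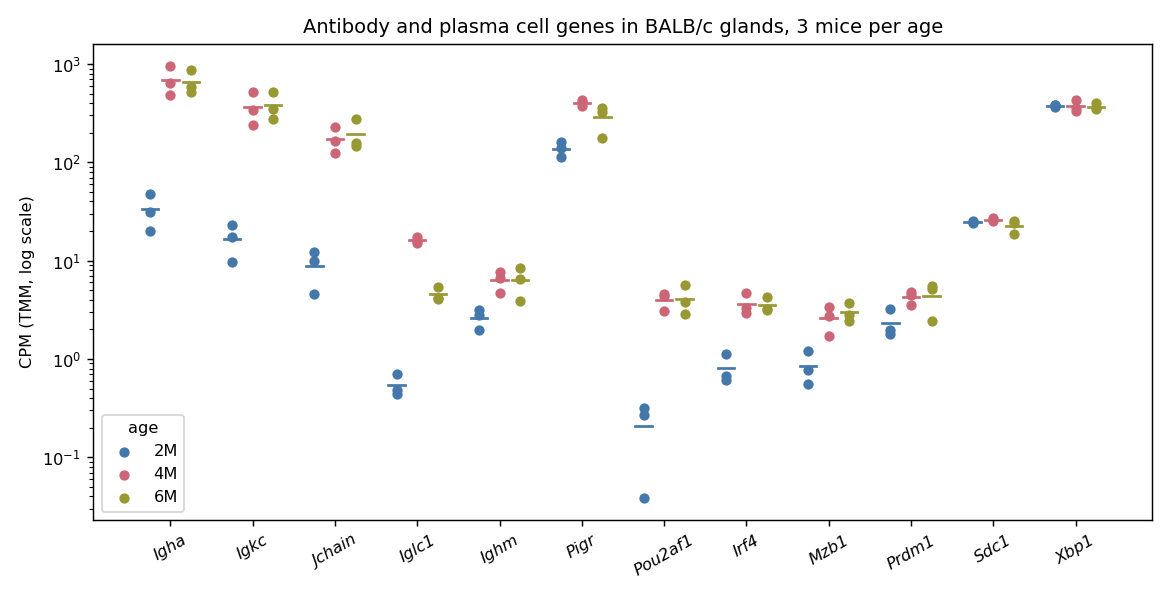
CPM on a log axis of 12 antibody and plasma cell genes in single BALB/c mice at 2M, 4M and 6M; points are mice and bars are means of 3. Igha, Igkc, Jchain and Pou2af1 are separated between 2M and 4M by more than the spread of the mice, while Sdc1 and Xbp1 lie at one level at all ages.

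An antibody gene is assembled from V and J segments before a plasma cell can transcribe it. Heavy chain genes also take a D segment, and the J segment ends the variable domain. All 8 J segments that could be tested, of 14 annotated, were upregulated, 4 of the heavy chain and 4 of the kappa chain. The 14 together summed to between 0.554 and 1.11 CPM at 2M. The filter on low counts therefore fixed in part the direction of those tested. Their reference sequences are shown because each is a different short piece of the same kind of transcript. The sequences come from GENCODE M21 on GRCm38 and run 5′ to 3′. Capitals mark the conserved core of each segment, TGGGG in the heavy chain and TTCGG in the kappa chain, with 4 further bases and then GG, which encodes the motif Trp-Gly-X-Gly or Phe-Gly-X-Gly. The heavy chain segments lie on the minus strand (chr12:113429781-113429833, chr12:113429468-113429567, chr12:113429085-113429132 and chr12:113428514-113428567, in order of number) and the kappa segments on the plus strand (chr6:70722562-70722599, chr6:70722916-70722958, chr6:70723223-70723260, chr6:70723548-70723585 and chr6:70723886-70723927). The annotated transcripts of Ighj2, Igkj2 and Igkj5 leave out 52, 4 and 4 bases of these spans.
Ighj1: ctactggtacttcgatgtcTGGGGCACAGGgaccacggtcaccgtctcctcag
Ighj2: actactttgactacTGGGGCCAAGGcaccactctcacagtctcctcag
Ighj3: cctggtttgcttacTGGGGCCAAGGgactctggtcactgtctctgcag
Ighj4: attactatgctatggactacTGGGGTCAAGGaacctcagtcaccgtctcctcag
Igkj1: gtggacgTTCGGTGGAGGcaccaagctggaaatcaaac
Igkj2: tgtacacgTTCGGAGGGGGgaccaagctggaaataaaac
Igkj3: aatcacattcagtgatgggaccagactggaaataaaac
Igkj4: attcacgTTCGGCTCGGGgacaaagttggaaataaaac
Igkj5: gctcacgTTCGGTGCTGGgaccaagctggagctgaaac

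Igkj3 holds no such core and had too few reads to be tested, with 0, 0 and 0.0705 CPM at 2M and 0.442, 0.122 and 0.209 CPM at 4M. Ighj4 had the highest level of the heavy chain segments, 0.21, 0.0897 and 0.229 CPM at 2M and 4.72, 2.36 and 8.68 CPM at 4M, with a log2 fold change of 4.89 ± 0.70 (edgeR FDR = 0.0149). Ighj1 had the lowest at 4M, between 0.873 and 1.48 CPM, and a log2 fold change of 3.66 ± 0.57 (edgeR FDR = 0.0022). Among the kappa segments, Igkj1 rose from 0.115, 0.0718 and 0.194 CPM to 2.36, 1.54 and 4.52 CPM (log2 fold change 4.45 ± 0.51, edgeR FDR = 0.00106). Igkj4 rose least of the 4, from 0, 0.197 and 0.0882 CPM to 0.774, 0.63 and 0.671 CPM (log2 fold change 2.82 ± 0.61, edgeR FDR = 0.0125). Without any single 2M mouse the FDR of Ighj4 was between 0.0732 and 0.0843, and that of Igkj4 was 0.0652 without replicate 3 of 2M. Of the lambda segments, Iglj1 had no count at 2M, and against the same floor its rise was 7.41-fold or more.

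Of 218 annotated V genes, 121 passed the filter on low counts and 79 were upregulated. Of the 121, 20 had 3 counts or fewer over the 2M mice and passed the filter through their 4M counts. So did V genes with more counts at 2M, such as Igkv8-30 with a mean of 0.0951 CPM. The filter fixed in part the direction of these genes. By locus, 43 of 58 heavy chain V genes, 33 of 60 kappa V genes and all 3 lambda V genes were upregulated. GRCm38 is a C57BL/6J genome whose antibody loci differ from those of BALB/c, and V segments resemble each other, so the count of a single segment is less certain than that of the family.

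Some V genes differed widely among the 4M mice. Ighv10-1 had 0, 0.215 and 0.0353 CPM at 2M and 13.9, 2.3 and 82.1 CPM at 4M, and was not called (edgeR FDR = 0.121). Igkv1-110 had 0, 0.233 and 0.264 CPM at 2M and 10.9, 7.78 and 101 CPM at 4M, and was not called either (edgeR FDR = 0.102). Both were highest in replicate 3 of 4M, as was Igkv4-72, with 0.0191, 0.0538 and 0.6 CPM at 2M and 17.7, 3.21 and 27.7 CPM at 4M (edgeR FDR = 0.0757). In the fit of all 18 mice the FDR of all 3 was under 0.05. In replicate 3 of 4M Ighv10-1 took 44.7% of all heavy chain V counts (Wilson 95% interval 43.8% to 45.6%), against 13.6% and 2.92% in the other 4M mice. Igkv1-110 took 30.2% of its kappa V counts (29.6% to 30.8%), against 4.98% and 5.08%. These intervals cover counting error only. The ends of these segments in the reference, with the codons of the conserved Tyr-X-Cys motif in capitals, are shown because they lead the repertoire of that mouse; Ighv10-1 lies at chr12:114479005-114479451 on the minus strand and Igkv1-110 at chr6:68270485-68271267 on the plus strand.
Ighv10-1: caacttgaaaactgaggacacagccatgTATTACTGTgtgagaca
Igkv1-110: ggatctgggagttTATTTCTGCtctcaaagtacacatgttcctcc

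The breadth of the repertoire did not differ between the ages beyond the spread of the mice. The inverse Simpson index of heavy chain V usage, an effective number of segments, was 19.9, 33.2 and 13.4 at 2M and 28.2, 30.3 and 4.75 at 4M (exact permutation p = 0.9, two-sided), with replicate 3 of 4M far below the others. For kappa V usage it was 11.3, 23.1 and 15.8 at 2M and 27.7, 27.9 and 8.86 at 4M (exact permutation p = 0.6, two-sided). Rarefied to 180 heavy chain counts, the mice of 2M showed 41, 51.5 and 42.6 segments and those of 4M 55.5, 54 and 41.6 (exact permutation p = 0.3, two-sided). Rarefied to 285 kappa counts, they showed 36, 48.9 and 42.9 segments at 2M and 51.2, 57 and 48.7 at 4M (exact permutation p = 0.2, two-sided). These 4 comparisons, with those of the Igha, Ighm and lambda shares and of the total, were 8 of 10 made on the repertoire, and with 3 mice per age none could pass a p of 0.05. The rank plot of V segments shows the 1 mouse that stands apart.

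**Figure D3:**
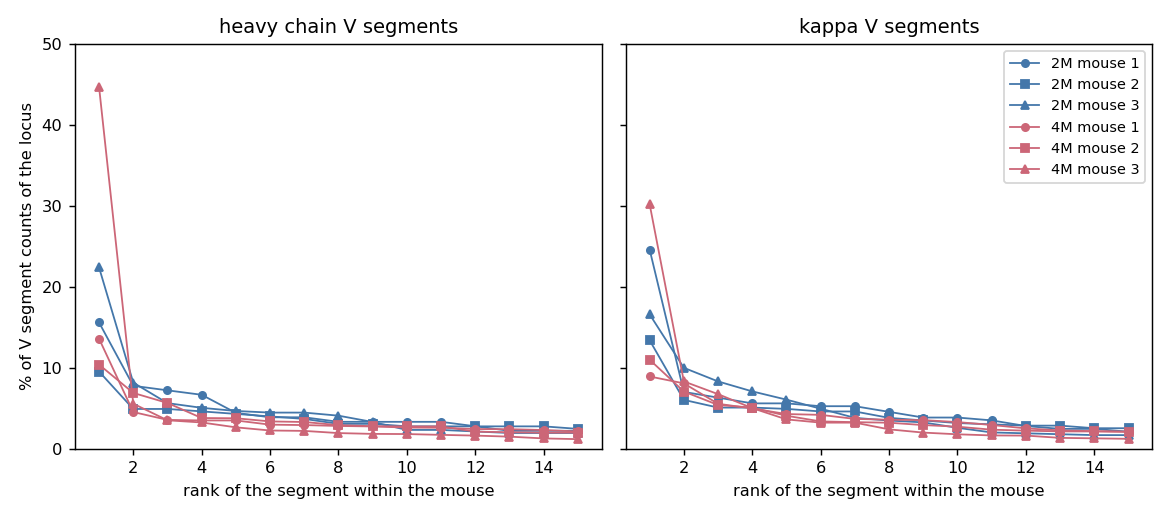
Percent of V segment counts taken by the 15 most used segments of each BALB/c mouse, by rank, for the heavy chain (left) and the kappa chain (right); blue lines are 2M mice and red lines 4M mice. Replicate 3 of 4M starts at 44.7% and 30.2%, above the other mice, with Ighv10-1 and Igkv1-110 in first place.

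A single V gene went the other way. Igkv14-111 (chr6:68256389-68256869, plus strand) had 22.9, 19.6 and 26.4 CPM at 2M, when no other tested V gene had a mean above 0.972 CPM, and 13.3, 13.6 and 16.3 CPM at 4M. The ages did not overlap, and the log2 fold change was -0.67 ± 0.12 (edgeR FDR = 0.00674), short of 2-fold. It was left out of the V usage above, but counted in the share of immunoglobulin genes and among the V genes tested.

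Of 20 plasma cell genes, all of them tested, 5 were upregulated, against 2.07% of all genes, and none was downregulated. The median log2 fold change was 0.12. Pou2af1, the B lineage coactivator of octamer-binding factors, went from 0.0382, 0.269 and 0.317 CPM to 4.33, 3.07 and 4.59 CPM, with a log2 fold change of 4.23 ± 0.42 (edgeR FDR = 0.000501). Irf4, a transcription factor required for plasma cells, went from 0.611, 1.13 and 0.67 CPM to 3.28, 2.95 and 4.71 CPM (log2 fold change 2.18 ± 0.26, edgeR FDR = 0.000354). Tnfrsf13b, which encodes the receptor TACI for the survival factors BAFF and APRIL, went from between 0.141 and 0.267 CPM to between 0.569 and 1.8 CPM (log2 fold change 2.58 ± 0.45, edgeR FDR = 0.00345). Mzb1, an ER chaperone of IgM and IgA assembly, and Slamf7, a surface receptor of plasma cells, rose by 1.63 ± 0.31 and 1.60 ± 0.35 on the log2 scale. The FDR of Mzb1 was 0.0543 without replicate 2 of 2M and 0.104 in a fit of all 18 mice, and that of Slamf7 was 0.0626 without replicate 3 of 2M. Prdm1, which encodes Blimp-1, rose by less than 2-fold (log2 fold change 0.88 ± 0.22, edgeR FDR = 0.0238), as did Cd38 (0.68 ± 0.19, edgeR FDR = 0.0455) and Eaf2 (0.30 ± 0.07, edgeR FDR = 0.0209). Tnfrsf17, which encodes the maturation antigen BCMA, had at most 0.366 CPM and did not pass the test (edgeR FDR = 0.121).

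Secretory genes of the plasma cell list that had higher levels in the gland at both ages gave no call upward. Xbp1, the transcription factor of the secretory program, had 381, 366 and 383 CPM at 2M and 430, 356 and 333 CPM at 4M (log2 fold change -0.01 ± 0.08). Sdc1, which encodes CD138, had between 24 and 25.6 CPM at 2M and between 25.2 and 27.3 CPM at 4M (log2 fold change 0.08 ± 0.06). Fkbp11 and Derl3, of ER folding and ER-associated degradation, were lower at 4M by less than 2-fold, with log2 fold changes of -0.40 ± 0.08 (edgeR FDR = 0.0147) and -0.17 ± 0.05 (edgeR FDR = 0.0434). Edem1, also of ER-associated degradation, was lower by 0.15 ± 0.04 on the log2 scale (edgeR FDR = 0.0414). Creld2, Hsp90b1, Pdia4, Sec11c, Ssr4 and Txndc5 had log2 fold changes between -0.11 and 0.15 and did not pass the test.

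B cell genes had much lower levels. Of 19 such genes 7 could be tested and 4 were upregulated, against 2.07% of all genes tested. These were Cd79a and Cd79b of the B cell receptor, the tetraspanin Cd37 and the adaptor Blnk. None of these 4 calls was made in a fit of all 18 mice, and that of Blnk was lost without replicate 3 of 2M (FDR = 0.0585 in edgeR) and, by its size, without replicate 3 of 4M (log2 fold change 0.83). Cd79a had 0, 0.0359 and 0.0176 CPM at 2M and 0.516, 0.447 and 0.731 CPM at 4M, a ratio of 31.9 with an exact 95% counting interval from 10.6 to 157. Cd79a and Cd79b passed the filter on low counts only through their 4M counts, which fixed their direction in part. Ms4a1, a defining marker of mature B cells, had at most 0.0746 CPM in any of the 6 mice and could not be tested. Ikzf3, which encodes the lymphoid factor Aiolos and was named after its values were seen, rose from between 0.0705 and 0.431 CPM to between 1.22 and 2.13 CPM (log2 fold change 2.94 ± 0.53, edgeR FDR = 0.00782), with an FDR of 0.0802 in the fit of all 18 mice. Ebf1, the founding factor of the B lineage but also active in stroma, had between 6.45 and 8.85 CPM at 2M and between 6.54 and 7.98 CPM at 4M (log2 fold change -0.01 ± 0.12).

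The promoters of these genes were read for the octamer, the motif ATGCAAAT or its complement ATTTGCAT, at which Pou2af1 acts. In the RefSeq promoter table for GRCm38.p6, which spans 250 bases before to 50 bases after each start, 1.74% of 32851 promoters hold it on either strand. The windows of Jchain, Pou2af1 and Cd79a do not, Mzb1 is not in the table, and no called immunoglobulin gene is in it. Of the other upregulated genes, 208 are in that list of promoters and 1.92% of them hold it, namely Blnk, Fgl2, Kcnab2 and Sash3.

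Of 22 tested macrophage and dendritic cell genes, 6 passed the FDR upward, against 6.10% of all genes, and none passed downward. All 22 had a log2 fold change above 0, against 8446 of all 16639 genes, with a median of 0.67, and 3 were upregulated: Itgax (CD11c), Clec9a of cross-presenting dendritic cells and the Fc receptor Fcgr1. Itgax had 0.554, 0.915 and 0.547 CPM at 2M and 1.38, 1.85 and 4.34 CPM at 4M (log2 fold change 1.92 ± 0.48, edgeR FDR = 0.044). The FDR rose above 0.05 for Itgax without any single 2M mouse or replicate 2 of 4M (0.0536 to 0.172), for Clec9a without any single 2M mouse or replicate 3 of 4M (0.1 to 0.194), and for Fcgr1 without replicate 2 or 3 of either age (0.0561 to 0.184). In the fit of all 18 mice it was 0.0519 for Clec9a and 0.0694 for Fcgr1. None of 8 tested MHC class II genes passed the FDR, at a median log2 fold change of 0.79; H2-Aa had 25.9, 30.9 and 22.6 CPM at 2M and 36.2, 37 and 69.8 CPM at 4M (edgeR FDR = 0.216). Replicate 3 of 4M was the highest of the 6 mice for 20 of the 22 myeloid genes and for all 8 class II genes, against 3248 of the 16639 genes tested. The T cell genes Cd3d, Cd3e and Cd3g had at most 1.12 CPM, and of the 4 tested genes of T and NK cells only the adaptor Lat was upregulated, with an FDR between 0.0551 and 0.0964 without replicate 2 or 3 of 2M or replicate 1 or 3 of 4M. All 4 were highest in replicate 3 of 4M, and the whole list of 27 genes summed to between 1.01 and 1.71 CPM at 2M and to between 3.37 and 14.4 CPM at 4M; the part of these cells in the other results was not tested. Among genes named after their values were seen, the leukocyte integrin Itgb2 rose from between 1.39 and 1.88 CPM to between 3.45 and 6.61 CPM (log2 fold change 1.54 ± 0.26, edgeR FDR = 0.00539), and the monocyte chemokine receptor Ccr2 rose by 1.21 ± 0.22 on the log2 scale (edgeR FDR = 0.00888), a call lost without replicate 2 of 2M (FDR = 0.0511 in edgeR) and, by its size, without replicate 3 of 4M (0.95).

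Of 22 tested interferon-inducible genes, 9 passed the FDR upward, against 6.10% of all genes, and in 9 every 4M mouse was above every 2M mouse, against 16.0%. The median log2 fold change was 0.76, and of those that passed the FDR Igtp, Mx1, Rsad2 and Psmb9 reached 2-fold. Irf1, a transcription factor induced by interferon gamma, had 13.4, 12.4 and 10.7 CPM at 2M and 20.3, 19.2 and 20.9 CPM at 4M (log2 fold change 0.74 ± 0.09, edgeR FDR = 0.000241), with no overlap. Mx1, an antiviral GTPase, had 0.325, 0.449 and 0.3 CPM at 2M and 1.2, 0.447 and 1.33 CPM at 4M (log2 fold change 1.48 ± 0.41, edgeR FDR = 0.0355), and replicate 2 of 4M lay within the range of 2M. The number called went to 9 without replicate 2 of 4M and to 0 without replicate 3 of either age. Mx1 and Rsad2 kept their call with replicate 2 of 4M left out and with no other mouse left out, at an FDR between 0.0641 and 0.125 otherwise. Igtp had an FDR between 0.0504 and 0.0997 without replicate 2 or 3 of 2M or replicate 1 or 3 of 4M, and of 0.148 in the fit of all 18 mice.

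Of 37 tested cell cycle genes, 6 passed the FDR downward, against 5.01% of all genes, and in 11 every 4M mouse was below every 2M mouse, against 16.1%. A log2 fold change below 0 was found in 32, against 8193 of all 16639 genes, with a median of -0.70, and 3 were called: Top2a, the topoisomerase that untangles replicated chromosomes, the mitotic kinase Cdk1 and the G1 cyclin Ccnd1. The parts of the list were not alike: 17 tested proliferation genes had a median of -1.07, and 13 tested DNA replication genes had a median of -0.09. Top2a had 6.71, 4.25 and 3.16 CPM at 2M and 1.18, 2.01 and 2.07 CPM at 4M (log2 fold change -1.41 ± 0.32, edgeR FDR = 0.0332). Ccnd1 had 113, 96.8 and 102 CPM at 2M and 48.8, 64.7 and 41 CPM at 4M (log2 fold change -1.01 ± 0.19, edgeR FDR = 0.04). Mki67, the classical marker of proliferation, was lower by less than 2-fold, with 33.1, 35 and 30.3 CPM against 24.8, 26.3 and 21.2 CPM (log2 fold change -0.44 ± 0.08, edgeR FDR = 0.00599). In none of these 3 genes did the ages overlap. Replicate 1 of 2M was the highest mouse for 20 of the 37 genes, against 2435 of the 16639 genes tested. The FDR of Top2a was between 0.0552 and 0.0919 without replicate 2 of 2M or any single 4M mouse, and that of Cdk1 was between 0.0753 and 0.141 for every mouse left out other than replicate 3 of 4M. Ccnd1 kept its call without replicate 2 of 4M; it had an FDR between 0.0987 and 0.13 without any other mouse except replicate 3 of 4M, where the log2 fold change was -0.87. The number called went to 7 without replicate 3 of 4M and to 0 without replicate 2 of 2M or replicate 1 of 4M. Hmmr, Pbk and Anln, mitotic genes named after their values were seen, were also downregulated, by 2.29 ± 0.44, 2.16 ± 0.60 and 1.41 ± 0.41 on the log2 scale, each from under 1 CPM. The calls of Pbk and Anln were kept without replicate 3 of 4M and lost without any other mouse (FDR between 0.0607 and 0.152 in edgeR). In the fit of all 18 mice no FDR of Top2a, Cdk1, Hmmr, Pbk or Anln was under 0.05, with values between 0.079 and 0.186.

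**Figure D4:**
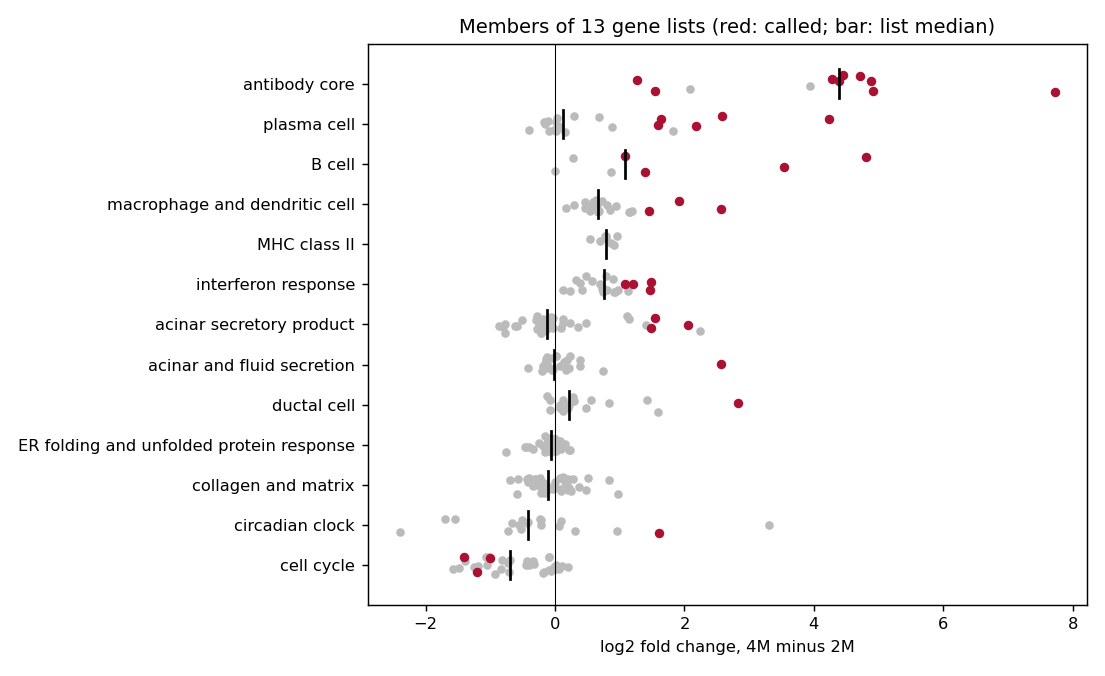
Log2 fold change from 2M to 4M in BALB/c of the tested members of 13 gene lists, with called genes in red, other genes in grey and the list median as a bar. Medians run from 4.39 for antibody genes to -0.70 for cell cycle genes; the rightmost points of the antibody and B cell lists, Ighg2b and Cd79a, have 3 counts or fewer at 2M, so their fitted position depends on the prior count.

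Of 39 tested secretory products of the acini, 26 were lower and 13 higher at 4M, with a median log2 fold change of -0.13. Of all 16639 genes, 8193 were lower. The 3 upregulated products, against 2.07% of all genes, were Scgb2a2, Pigr and Lyz1. Scgb2a2, a secretoglobin, had 9550, 7120 and 5630 CPM at 2M and 37200, 30400 and 24900 CPM at 4M, which was between 0.505% and 0.876% of all counts at 2M and between 2.48% and 3.42% at 4M. Its log2 fold change was 2.05 ± 0.28 (edgeR FDR = 0.022), and the FDR was 0.0932, 0.0503 and 0.069 without replicate 2 of 2M, replicate 3 of 2M and replicate 2 of 4M. At 6M it stayed between 34000 and 42900 CPM. Scgb2b2, a secretoglobin at a higher level, was slightly lower at 4M, at 64900, 62400 and 70100 CPM against 53400, 54700 and 51900 CPM (log2 fold change -0.30 ± 0.05, edgeR FDR = 0.00425). Of 16 secretoglobins on the list, 14 had a log2 fold change below 0, 1 was upregulated and 3 passed the FDR downward, against 5.01% of all genes. Scgb2b1, a secretoglobin outside the list that was named after its values were seen, was downregulated from 23.5, 32.2 and 29.3 CPM to 5.4, 6.91 and 9.63 CPM (log2 fold change -1.94 ± 0.25, edgeR FDR = 0.0117). Its FDR was 0.0504 without replicate 3 of 2M and 0.0561 without replicate 2 of 4M. Secretoglobin genes are near-identical in part, so reads may be divided among them. The antimicrobial Lpo (lactoperoxidase) and the prolactin-inducible protein Pip passed the FDR at log2 fold changes of -0.18 ± 0.05 and -0.19 ± 0.05.

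Slpi, a protease inhibitor of mucosal fluids named after its values were seen, had 0.0191, 0.197 and 0.0705 CPM at 2M and 3.67, 1.56 and 3.16 CPM at 4M (log2 fold change 4.83 ± 0.55, edgeR FDR = 0.00115). Slpi too passed the filter on low counts through its 4M counts, which fixed its direction in part. Olfm4, a glycoprotein of secretory epithelia and neutrophils, rose from 1.99, 1.26 and 2.2 CPM to 6.86, 8.51 and 5.13 CPM (log2 fold change 1.91 ± 0.24, edgeR FDR = 0.0015). Lyz1 was called at 1.48 ± 0.41 (edgeR FDR = 0.0395), with replicate 3 of 4M at 2.16 CPM and the other mice between 0.413 and 0.995 CPM, and the FDR was between 0.0892 and 0.164 without that mouse or any single 2M mouse and 0.0525 in the fit of all 18 mice.

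Of 24 tested genes of acinar identity and fluid secretion, 4 passed the FDR upward (Aqp3, Creb3l1, Itpr2 and Kcnma1) and 1 downward (Vipr1). Of all genes, 6.10% passed upward and 5.01% downward. Aqp3 was called at under 0.3 CPM, with an FDR between 0.0603 and 0.107 without replicate 1 or 2 of either age. It passed the filter on low counts only through its 4M counts, which fixed its direction in part. The water channel Aqp5 had between 144 and 147 CPM at 2M and between 124 and 139 CPM at 4M (log2 fold change -0.14 ± 0.05, edgeR FDR = 0.0819). Of 18 ductal genes, 5 passed the FDR upward, against 6.10% of all genes, including Epcam (log2 fold change 0.28 ± 0.05, edgeR FDR = 0.00203), Clu (0.83 ± 0.08, edgeR FDR = 7.03e-05) and Krt19, which alone was called (2.83 ± 0.62, edgeR FDR = 0.0128), at under 1 CPM and with an FDR of 0.0565 and 0.0652 without replicate 2 and 3 of 2M. None of 11 myoepithelial genes passed the FDR; Acta2 had between 31.2 and 38.7 CPM at 2M and between 25.8 and 35.9 CPM at 4M. In the 32 genes of ER folding 7 passed the FDR downward, against 5.01% of all genes, and 1 upward, against 6.10%, with no call. The downward genes were led by the chaperone Dnajb9 at -0.40 ± 0.05 (edgeR FDR = 0.000448) and included the main ER chaperone Hspa5 at -0.16 ± 0.04 (edgeR FDR = 0.0433).

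In stroma and vessels some genes of growth and remodelling were lower by less than 2-fold. The basement membrane collagens Col4a1 and Col4a2 fell by 0.41 ± 0.09 and 0.39 ± 0.09 on the log2 scale (edgeR FDR = 0.0287 and 0.0207), and Col12a1 fell by 0.69 ± 0.11 (edgeR FDR = 0.00165). Of 40 tested matrix genes 4 passed the FDR, all downward, against 5.01% of all genes, and none was called. A log2 fold change above 0 was found in 17 of the 40. The fibrillar collagens Col1a2 and Col3a1 did not pass (edgeR FDR = 0.246 and 0.416). The receptors of vascular endothelial growth factor, Kdr and Flt1, fell by 0.63 ± 0.11 and 0.48 ± 0.08 on the log2 scale, while Vwf, of mature endothelium, was higher by 0.61 ± 0.07 (edgeR FDR = 0.000138). On the list of fibroblast and endothelial genes, 3 of 17 tested passed the FDR downward, against 5.01% of all genes, and 1 upward, against 6.10%. The median log2 fold change of that list was 0.02. Pecam1 and Cdh5, which mark all endothelium, had log2 fold changes of 0.02 ± 0.09 and -0.17 ± 0.10 and did not pass the test. The adipocyte markers Adipoq and Plin1 had at most 0.377 and 0.508 CPM.

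In lipid metabolism Scd1, the desaturase that makes monounsaturated fatty acids, had 411, 402 and 377 CPM at 2M and 649, 851 and 752 CPM at 4M (log2 fold change 0.93 ± 0.09, edgeR FDR = 0.00101). Its regulator Srebf1 was higher by 0.31 ± 0.07 (edgeR FDR = 0.0119). Of 31 tested genes of fatty acid and cholesterol synthesis 4 passed the FDR upward, against 6.10% of all genes. In the downward direction 2 passed, against 5.01%, and none of the 31 was called. In the steroid list none of 15 was called; Fkbp5, which responds to glucocorticoid and androgen, had 372, 409 and 478 CPM at 2M and 267, 238 and 296 CPM at 4M (log2 fold change -0.65 ± 0.11, edgeR FDR = 0.0187).

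Clock genes differed among mice as well as between ages. Arntl, the clock activator BMAL1, had 1.57, 1.31 and 0.811 CPM at 2M and 4.53, 18.3 and 13.7 CPM at 4M (log2 fold change 3.31 ± 0.69, edgeR FDR = 0.0606), and its partner Npas2 was called at 1.60 ± 0.43 (edgeR FDR = 0.0381), with 0.719 CPM in replicate 1 of 4M beside 0.707 CPM in replicate 1 of 2M. Its FDR was between 0.067 and 0.151 for every mouse left out except replicate 1 of 4M. Dbp, an output gene in antiphase to Arntl, had 30.5, 35.3 and 63.5 CPM at 2M and 19.7, 8.65 and 11.1 CPM at 4M (log2 fold change -1.71 ± 0.48, edgeR FDR = 0.114). The 2 ages do not overlap in Arntl or in Dbp. Arntl and Dbp were named after their values were seen. The immediate early gene Fos was called at 1.03 ± 0.28 (edgeR FDR = 0.0352), at 2.25 CPM or less, and had an FDR between 0.0766 and 0.135 without any single 2M mouse or replicate 2 of 4M and of 0.519 in the fit of all 18 mice. The time of day at which glands were taken is not given in the labels, and the part of the clock in the other results was not tested.

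Among the other protein-coding genes, several differed between the ages by far more than among mice. Fgl2, a fibrinogen-like protein secreted by regulatory T cells and macrophages, had 4.57, 4.58 and 5.1 CPM at 2M and 19.8, 19.8 and 22.4 CPM at 4M (log2 fold change 2.13 ± 0.09, edgeR FDR = 1.94e-08). Gm12886 rose from between 777 and 847 CPM to between 1910 and 2170 CPM (log2 fold change 1.33 ± 0.06, edgeR FDR = 2.82e-08, and 0.0812 in the fit of all 18 mice), and Ankdd1a rose from 5.39, 4.85 and 3.03 CPM to 22.6, 22.8 and 21.9 CPM (log2 fold change 2.35 ± 0.19, edgeR FDR = 0.00064). Ggt1, which breaks down extracellular glutathione, rose from 10.7, 10.7 and 12.1 CPM to 27.8, 23.1 and 22.3 CPM (log2 fold change 1.13 ± 0.09, edgeR FDR = 1.66e-05). Cped1 and the granzyme inhibitor Serpinb9 rose by 1.22 ± 0.08 and 1.31 ± 0.12 on the log2 scale, and Cyfip2, of the actin-regulating WAVE complex, by 2.32 ± 0.27. Cacna1s, a calcium channel subunit named after its values were seen, had between 0.184 and 0.343 CPM at 4M and no count at 2M. Against the floor this was a rise of 14.2-fold or more, but the gene passed the filter only through its 4M counts, which fixed its direction.

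On the other side, Cald1, the actin-binding caldesmon, had 62.2, 64.6 and 60.9 CPM at 2M and 27.2, 28.6 and 25.5 CPM at 4M (log2 fold change -1.20 ± 0.05, edgeR FDR = 3.41e-08), and stayed between 25.8 and 30.4 CPM at 6M. Myh11 and Mylk, contractile genes of the same cell types, had log2 fold changes of 0.13 ± 0.13 and 0.09 ± 0.10 and were not called. Mfsd4a, a transporter of the major facilitator family, fell from 18.5, 25.3 and 17.5 CPM to 6.25, 6.56 and 5.76 CPM (log2 fold change -1.72 ± 0.14, edgeR FDR = 0.000118). Smco4 fell from 19.9, 18.9 and 21 CPM to 8.53, 9.93 and 10.4 CPM (log2 fold change -1.05 ± 0.09, edgeR FDR = 1.79e-05), and by less than 2-fold without replicate 1 of 4M (-0.97). Ephx4 fell by 1.21 ± 0.28 on the log2 scale (edgeR FDR = 0.0198), with an FDR between 0.0541 and 0.0729 without replicate 1 or 2 of 2M or replicate 1 of 4M. Receptors and a channel were also downregulated. Npy1r, a receptor of neuropeptide Y, fell from 5.03, 4.36 and 4.09 CPM to 2.03, 1.95 and 2.04 CPM, the adenosine receptor Adora2b fell from between 7.68 and 11.1 CPM to between 3.45 and 5.22 CPM, and the potassium channel Kcnc4 fell from between 4.89 and 5.78 CPM to between 1.32 and 2.64 CPM. Their log2 fold changes were -1.16 ± 0.15, -1.20 ± 0.19 and -1.35 ± 0.21 (edgeR FDR = 0.000443, 0.00466 and 0.00267). The sialyltransferase St6galnac1 fell by 1.80 ± 0.30 on the log2 scale (edgeR FDR = 0.027), with an FDR between 0.0549 and 0.112 without replicate 2 or 3 of 2M or replicate 1 or 3 of 4M and of 0.296 in the fit of all 18 mice, while St6gal1, which adds sialic acid to N-glycans such as those of antibodies, rose by 1.23 ± 0.20 (edgeR FDR = 0.00192); St6gal1 was named after its values were seen.

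The same ages in NOD.H-2b mice give the comparison for these changes. The interaction of strain and age, fitted on 12 mice, called 119 of 18422 genes (0.646%), and in NOD.H-2b alone 1061 genes were upregulated from 2M to 4M (5.97%). Igha, Igkc and Jchain rose in NOD.H-2b too, from a higher start: Igha had 265, 668 and 555 CPM at 2M and 1390, 3140 and 2500 CPM at 4M (log2 fold change 2.24 ± 0.48, edgeR FDR = 0.0403). The smaller rise was not called different from that in BALB/c, with a difference of -2.14 ± 0.68 for Igha and an edgeR FDR of 0.158, 0.189 and 0.166 for the 3 genes. Iglv1 and Iglc1 did differ, by -3.26 ± 0.50 and -2.71 ± 0.56 (edgeR FDR = 0.0183 and 0.049), and the difference was called in 3 and 0, respectively, of the 6 fits with a BALB/c mouse left out.

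Pigr changed in opposite directions. In NOD.H-2b it went from 761, 462 and 635 CPM to 243, 272 and 380 CPM (log2 fold change -1.06 ± 0.24, edgeR FDR = 0.0396), so that the strains, which did not overlap at 2M, overlapped at 4M. The difference of the changes was -2.60 ± 0.31 (edgeR FDR = 0.00907), and it was called with each BALB/c mouse left out. Fgl2 in NOD.H-2b was at 38.6, 56.3 and 43.5 CPM at 2M and at 61.2, 54.3 and 61 CPM at 4M, above every BALB/c mouse at both ages, and its change was smaller than in BALB/c (difference -1.77 ± 0.17, edgeR FDR = 0.000661). Kcnc4 and Npy1r, which fell in BALB/c, had between 0.849 and 2.28 CPM in all 6 NOD.H-2b mice, against between 1.32 and 2.64 CPM in BALB/c at 4M. Cald1 had a log2 fold change of -1.28 ± 0.32 in NOD.H-2b (edgeR FDR = 0.0583), and the difference between the strains was -0.07 ± 0.35 (edgeR FDR = 0.953).

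**Figure D5:**
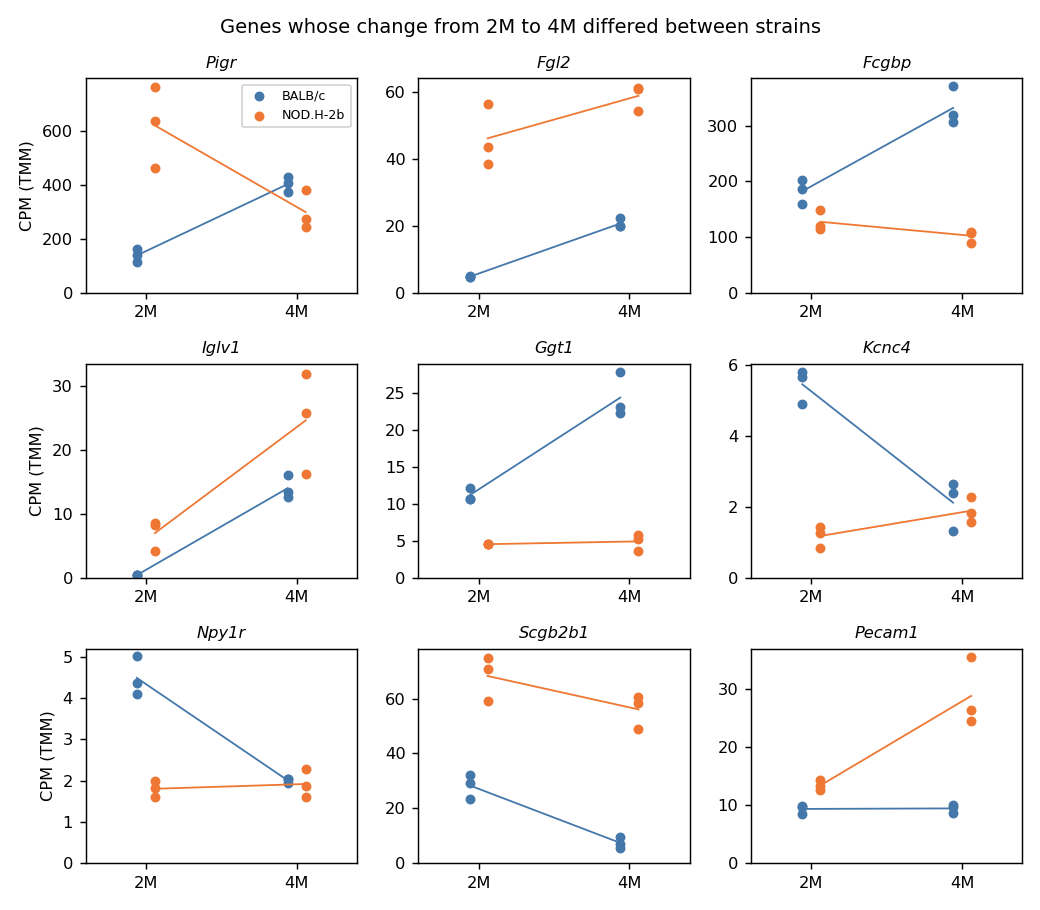
CPM of 9 genes in single mice of BALB/c (blue) and NOD.H-2b (orange) at 2M and 4M, with lines joining the means of 3 mice; the change over age of each gene differed between the strains in edgeR's interaction test. Pigr rises in BALB/c and falls in NOD.H-2b, and Kcnc4 and Npy1r in BALB/c reach between 1.32 and 2.64 CPM at 4M, beside between 1.56 and 2.28 CPM in NOD.H-2b.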

How the data were processed

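The authors deposited raw counts for each Ensembl gene: reads of ribosome-depleted RNA were trimmed with cutadapt, aligned to GRCm38 with STAR and counted with HTSeq, with DESeq2 named for later steps. The deposited log2 values were checked to be log2 of the count over a size factor per mouse, plus 1, and were not used further. Annotation release, strand setting and handling of multiple matches are not given in the sources used here, so genes that overlap another gene's exons (among those named, Mzb1, Slamf7, Slpi, Olfm4, Ankdd1a, Mfsd4a, Cped1, Top2a, Ephx4, Egf, Hsp90b1, Pdia4, Txndc5, Iglc2, Igtp, Arntl, Dbp and Scgb2b2) cannot be separated from it. Of 54232 genes, 54165 were named and placed by GENCODE M21, and 26355 had no count in the 6 mice.

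BALB/c 4M was compared with 2M, 3 mice against 3, in R 4.3.3 with edgeR 4.0.16 (filterByExpr, TMM, robust quasi-likelihood test, Benjamini-Hochberg FDR under 0.05 and at least 2-fold). Standard errors come from the fold change and the F statistic. Levels are CPM with TMM factors over all 18 mice. Genes at 0 were held to a floor of 3 counts. Of the steps, only the edgeR comparison of 3 mice against 3 was tested on simulated counts, with no changes set in genes of low level.

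The comparison, gene lists and named genes were chosen with earlier results of these data known. The text names part of the genes drawn by this rule: all of the antibody and plasma cell lists; of other called protein-coding genes whose average log2 CPM was 1 or more, those of largest fold (8 per direction) and of smallest p (5 per direction); from each list up to 3 called members each way and the 2 with the highest level; the 5 highest V genes at 4M; and cell markers. Genes added later are said to be so, and other list members are named where they passed the FDR. Alternatives were other normalizations, filters and tests (DESeq2 1.42.0, glmTreat), all 18 mice in 1 fit, immunoglobulin genes left out of library sizes, a replicate block and each BALB/c mouse left out.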

Additional observations from a re-analysis of the deposited data

Results flagged for a closer look

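The change from 2M to 4M differed between the strains for 11 of the genes named here, by edgeR's test of the interaction of strain and age. Values are the log2 change in NOD.H-2b minus that in BALB/c, followed by the FDR. BALB/c gained more, or NOD.H-2b lost, in Pigr (-2.60, FDR = 0.00907), Fgl2 (-1.77, FDR = 0.000661), Fcgbp (-1.18, FDR = 0.00927), Ggt1 (-1.01, FDR = 0.0215), Iglv1 (-3.26, FDR = 0.0183) and Iglc1 (-2.71, FDR = 0.049). BALB/c lost more, or NOD.H-2b gained, in Kcnc4 (2.04, FDR = 0.0124), Npy1r (1.26, FDR = 0.0183), Scgb2b1 (1.67, FDR = 0.0229) and Hmmr (2.06, FDR = 0.0411). Pecam1, level in BALB/c at between 8.39 and 9.92 CPM, rose in NOD.H-2b from between 12.5 and 14.2 CPM to between 24.4 and 35.5 CPM (1.10, FDR = 0.00986).

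Pigr, Fgl2, Fcgbp, Kcnc4 and Pecam1 passed the same threshold with each of the 6 BALB/c mice left out. Ggt1, Iglv1, Npy1r and Scgb2b1 passed it in 3 of these 6 fits, and Iglc1 and Hmmr in 0. The difference of Scgb2b1 was between 1.49 and 1.87 in all 13 alternative fits, which included other normalizations, filters and tests.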

How the results depend on the processing

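With DESeq2 size factors, upper quartile scaling, all 18 mice in 1 fit, or immunoglobulin genes left out of the library sizes, the counts of genes higher and lower at 4M and of immunoglobulin genes higher at 4M stayed within 1.5 times of 345, 50 and 94. DESeq2's Wald test gave 389, 59 and 108. Without a filter on low counts 577 genes were higher and 86 lower. With at least 10 counts in every mouse 195 were higher, of which 9 were immunoglobulin genes, since few of those reach 10 counts at 2M. With glmTreat, which tests against 2-fold itself, 75 were higher, 4 lower and 53 immunoglobulin genes higher. Leaving out 1 mouse gave between 214 and 391 higher, 27 to 55 lower and 82 to 104 immunoglobulin genes higher. The number of genes whose change differed between strains was 119 in the reported fit, 343 with DESeq2's Wald test, 1 with glmTreat and 48 to 135 with 1 BALB/c mouse left out. The log2 difference in the share of immunoglobulin counts was 4.00 and lay between 3.69 and 4.39 over all alternatives, constant regions alone giving the highest.

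The replicate numbers did not pair the mice: same-numbered mice had correlations of their deviations between -0.067 and -0.054. With the replicate block 281 genes were higher, 41 lower and 101 immunoglobulin genes higher, 59 differed between strains, and the share of immunoglobulin counts differed by the same 4.00 (exact permutation p = 0.25 within pairs, the smallest possible). For the 76 named genes that were called and could be fitted, 555 of 657 values under other settings and 333 of 456 values with 1 mouse left out kept their call, and none changed direction. Depth limits IgG classes, B cell and T cell genes, many of which were under 1 CPM.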
